A study of Mus musculus with 8 samples.

Results

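The genes described here encode the enzymes that build cholesterol and fatty acids, and the proteins that sense and move sterols. They were taken from a list of 32 mouse genes by the gene symbol of each array probe set. Of these, 28 had a probe set of their own, among 30702 genes measured in all, and the mean signal of each of the 28 lay above the median of the negative control probe sets. Tm7sf2, Srebf1 and Scd2 sit on probe sets shared with Vps51, Mir6922 and Mir5114, so no value is given for them, and Acat2 was not analysed here.

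The samples were forepaw skin of 4 Krt16 null mice and 4 littermates that were wild type (WT), 2 males and 2 females of each genotype, all C57Bl/6 and 8 weeks old. The null allele carries bacterial LacZ in place of the coding sequence of Krt16, a keratin of palm and sole epidermis. All 4 null samples were lesions and all 4 WT samples normal skin: the effects of genotype and of the lesion cannot be told apart. RNA came from whole paw skin, so fewer cells of a type and less RNA per cell cannot be told apart either.

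Cholesterol is made from acetyl-CoA through mevalonate, the isoprenoids and squalene, and fatty acids are made from the same acetyl-CoA through malonyl-CoA. When membrane sterol is low, Scap carries the SREBP transcription factors out of the endoplasmic reticulum and they switch on most of the enzyme genes; the Insig proteins hold Scap back when sterol is plentiful. In epidermis, keratinocytes make both cholesterol and fatty acids for the lipid sheets between the cornified cells, and sebaceous glands and fat make lipids of their own.

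Signals are given as log2 RMA values (background-corrected, normalized and summarized by probe set), and differences are null minus WT from 1 limma fit over all genes with sex as a covariate. A gene was called at an adjusted p under 0.05 over all 30702 genes. Array values stand in the order male 1, male 2, female 1, female 2 within each genotype. Median signals were 4.04 to 4.09 on every array and negative control medians 4.26 to 4.46. Krt16 itself read 6.83, 6.87, 6.89 and 6.99 in null skin, against 8.48, 8.20, 7.05 and 9.66 in WT skin (difference -1.45, SE 0.44, adjusted p = 0.0615). The mean signal of 12 keratinocyte markers was 10.47 to 10.55 in null arrays and 10.55 to 10.78 in WT arrays. Of the 12, 4 fell and 0 rose, beside 5.98% and 7.07% of all genes.

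Several enzymes of cholesterol synthesis were higher in null lesions. Of 7 measured fatty acid synthesis genes 0 were, beside 7.07% of all genes, and 7 genes are too few to tell 0 from that share. These groups were not compared by a test. Of the 28 measured genes, 7 rose and 3 fell, and 18 did not pass the test; in either direction 13.1% of all genes were called. The share that rose was 25.0%, beside 7.07% of all genes, and the share that fell was 10.7%, beside 5.98% of all genes. Of all genes, 13004 had a mean signal under the negative control median, unlike the 28. In a fit of the 17698 genes above that median, 2199 rose and 2042 fell, and 7 and 3 of the 28 did. Beside those 17698 genes the share of the 28 that rose was still the higher one, and the share that fell was not. The genes that rose were Idi1, Cyp51, Sqle, Fdps, Msmo1, Sc5d and Ebp, all enzymes of sterol synthesis, by 0.30 to 0.77 on the log2 scale. The genes that fell were the fatty acid elongase gene Elovl6, the mevalonate pathway kinase gene Pmvk and the sterol transport gene Stard4, by -0.51, -0.28 and -0.27. The median difference over the 28 genes was 0.09, beside 0.01 over all genes, and 19 of the 28 differences were positive, beside 54.7% of all genes. The arrays of the genotypes were fully apart for 11 of the 28, beside 18.9% of all genes. Null skin had the higher values for 8 of them, beside 10.1% of all genes, and the lower for 3, beside 8.76%.

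**Figure D1:**
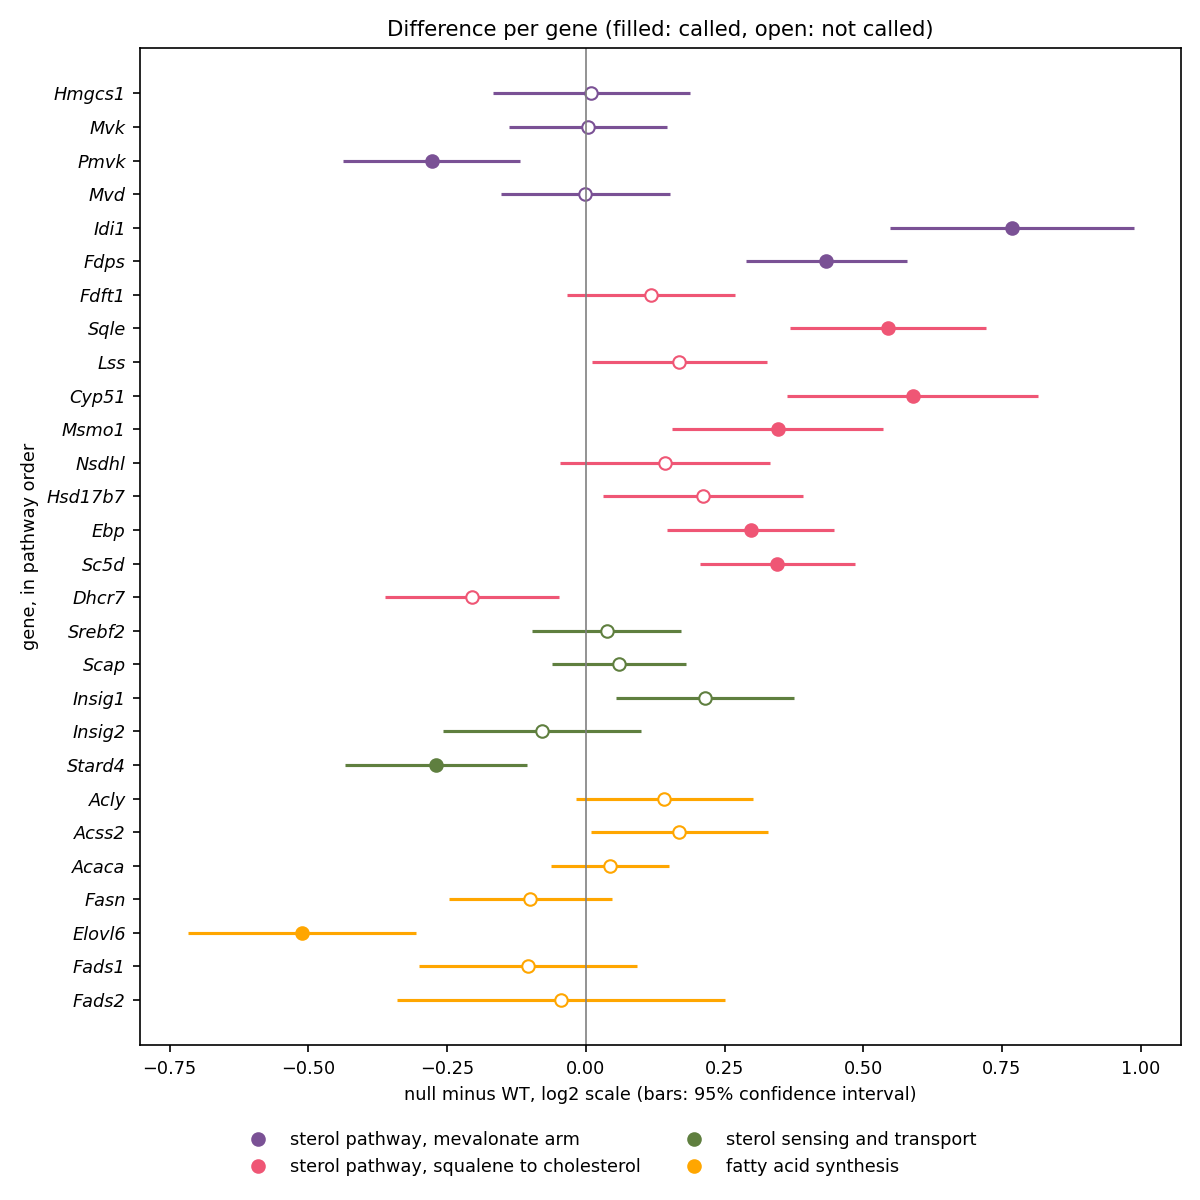
Null minus WT difference on the log2 scale for each measured gene, in pathway order from the top; points are limma estimates, bars 95% confidence intervals, and filled points passed the adjusted p. Idi1 at 0.77 lies farthest to the right and Elovl6 at -0.51 farthest to the left.

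Of the first mevalonate steps measured, 1 fell and 3 did not pass, where 5.98% of all genes fell. Hmgcs1, the synthase that makes HMG-CoA, read 9.86, 9.94, 9.83 and 10.04 in null skin, against 9.83, 10.06, 9.78 and 9.96 in WT skin. The 2 sets of arrays covered nearly the same range, and the difference was 0.01 (95% confidence interval -0.17 to 0.19, adjusted p = 0.959). Mvk, mevalonate kinase, differed by 0.00 (-0.14 to 0.15), and Mvd, the decarboxylase that yields isopentenyl diphosphate, by 0.00 (-0.15 to 0.15). Pmvk, the phosphomevalonate kinase between them, read 7.48, 7.64, 7.56 and 7.50 in null skin, against 7.73, 7.99, 7.73 and 7.84 in WT skin. All 4 null arrays lay below all 4 WT arrays (difference -0.28, SE 0.07, adjusted p = 0.0331). That call was lost without any 1 null array, without male WT 2 or without female WT 2 (adjusted p 0.0612 to 0.0877), after median centring (0.0549) and with adjustment over all probe sets (0.0531).

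The next enzymes, which handle the isoprenoid units, rose. Idi1, the isomerase of isopentenyl diphosphate, read 7.61, 7.87, 7.51 and 7.79 in null skin, against 6.97, 7.16, 6.67 and 6.90 in WT skin. The lowest null array was above the highest WT array, and the difference of 0.77 (SE 0.10, adjusted p = 0.00166) is 1.70-fold, the highest among the 28 genes. Fdps, which joins isoprenoid units into farnesyl diphosphate, read 8.02, 8.08, 7.75 and 7.83 in null skin, against 7.53, 7.54, 7.54 and 7.34 in WT skin. Again no arrays overlapped (difference 0.43, SE 0.06, adjusted p = 0.00357, 1.35-fold). Of the 6 measured mevalonate genes 2 rose (33.3%, beside 7.07% of all genes), 1 fell (16.7%, beside 5.98%) and 3 did not pass. Their median difference was 0.01.

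From squalene to cholesterol, 5 of 10 measured genes rose (50%, beside 7.07% of all genes), 0 fell (beside 5.98%) and 5 did not pass. Their median was 0.25. At an unadjusted p under 0.05, 8 of the 10 passed, beside 26.6% of all genes. Sqle, squalene epoxidase, a rate-limiting enzyme of the later pathway, read 8.63, 8.88, 8.67 and 8.81 in null skin, against 8.11, 8.35, 8.13 and 8.22 in WT skin. Every null array exceeded every WT array (difference 0.54, SE 0.08, adjusted p = 0.00305, 1.46-fold). Cyp51, the cytochrome that demethylates lanosterol, read 8.75, 9.00, 8.76 and 8.94 in null skin, against 8.29, 8.56, 8.02 and 8.23 in WT skin. It too was separated by genotype (difference 0.59, SE 0.10, adjusted p = 0.00654).

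Of the measured enzymes that act after Cyp51, Sc5d, Ebp and Msmo1 rose, and Nsdhl, Hsd17b7 and Dhcr7 did not pass. Over all genes 7.07% rose. Sc5d, a sterol desaturase of the last steps, read 8.34, 8.40, 8.14 and 8.37 in null skin, against 7.99, 8.01, 7.97 and 7.89 in WT skin. Ebp, the sterol isomerase, read 6.37, 6.37, 6.26 and 6.33 in null skin, against 5.95, 6.16, 5.94 and 6.11 in WT skin. Neither overlapped between genotypes, with differences of 0.35 for Sc5d (SE 0.06, adjusted p = 0.00827) and 0.30 for Ebp (SE 0.07, adjusted p = 0.0198). Msmo1, the sterol methyl oxidase, read 7.59, 7.72, 7.45 and 7.62 in null skin, against 7.32, 7.50, 6.96 and 7.22 in WT skin. Here female null 1 lay just under male WT 2, so the arrays overlapped, with a difference of 0.35 (SE 0.08, adjusted p = 0.028). Both Ebp and Msmo1 lost their calls when male null 2, female null 2 or male WT 1 was left out, and Msmo1 also without female null 1 or without the sex term (adjusted p 0.0567 to 0.0848).

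The other enzymes of this arm did not pass. Differences were 0.12 for Fdft1, squalene synthase, 0.14 for Nsdhl and 0.21 for Hsd17b7, both of sterol demethylation, and 0.17 for Lss, lanosterol synthase. Their adjusted p ran from 0.124 to 0.329. The 95% confidence intervals were 0.03 to 0.39 for Hsd17b7 and 0.01 to 0.33 for Lss, and Lss was called without male WT 2 (0.24, adjusted p = 0.0452). Dhcr7, the reductase that completes cholesterol and whose substrate is also the vitamin D precursor of skin, pointed the other way. It read 7.40, 7.30, 7.33 and 7.46 in null skin, against 7.49, 7.70, 7.48 and 7.63 in WT skin, with all null arrays below all WT arrays. Its difference of -0.21 (SE 0.07) missed the threshold (adjusted p = 0.09), and passed after repeated quantile normalization (-0.23, adjusted p = 0.0473).

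**Figure D2:**
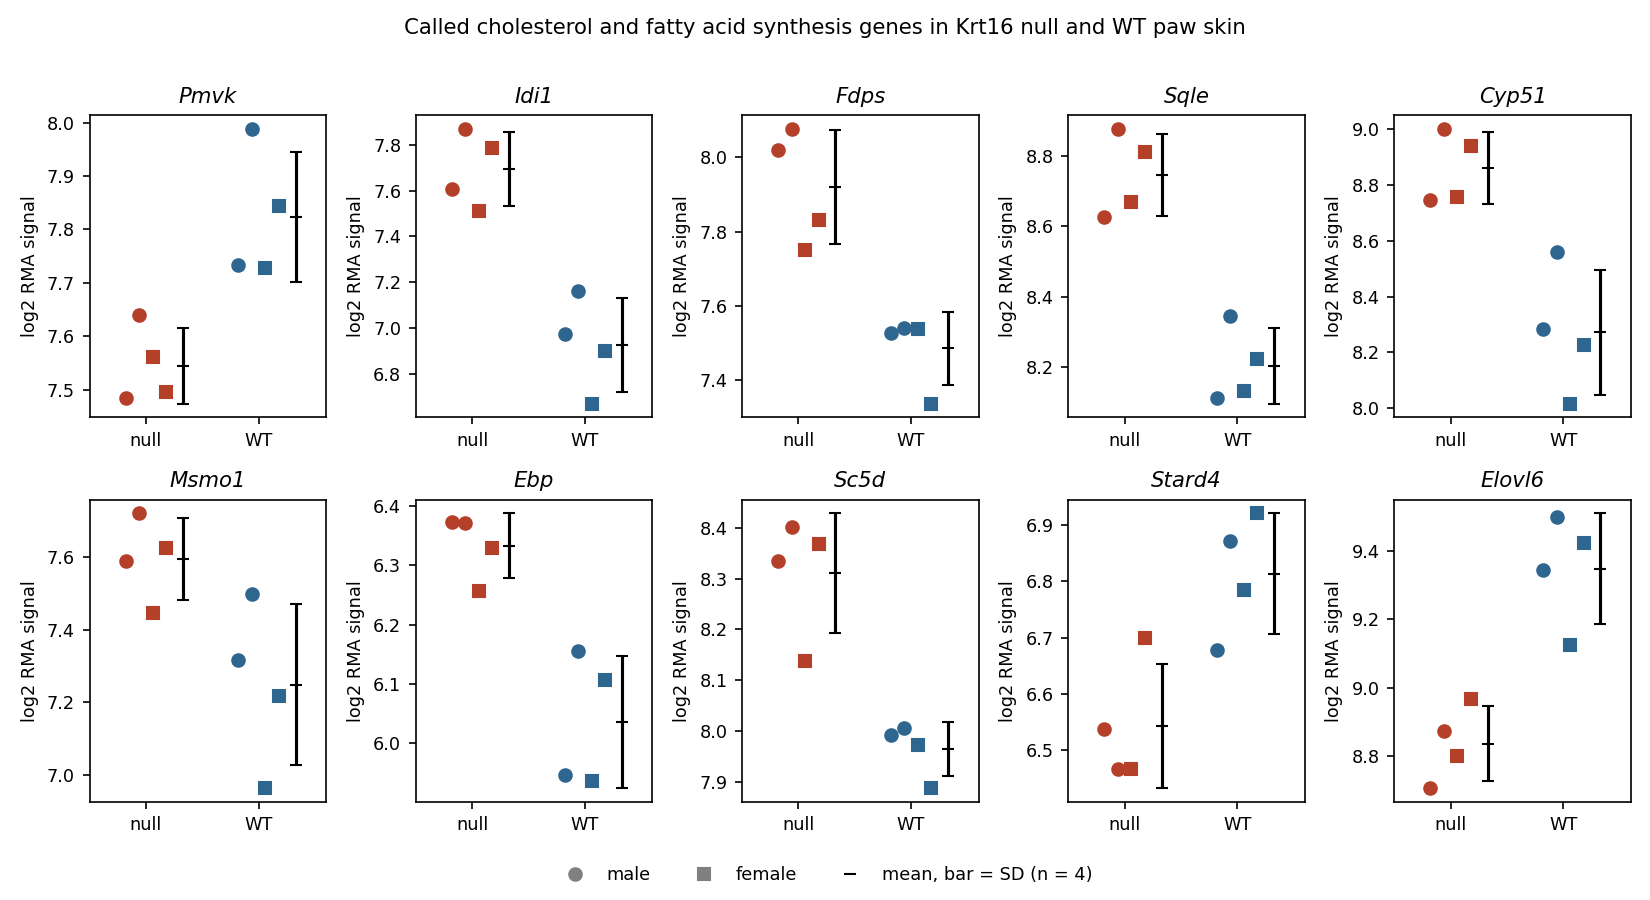
Log2 RMA signal of the 10 called genes in each array, null left and WT right, with circles for males, squares for females, and the mean with SD (n = 4 mice) beside them; each panel has its own axis. Null and WT arrays are apart in all panels except Msmo1 and Stard4.

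Within a genotype these enzymes tended to be high or low in the same arrays, so counts of them are not counts of independent genes. Male WT 2 was the highest WT array for all 16 measured enzymes of sterol synthesis, and for 8430 of all 30702 genes. Male null 2 was the highest null array for 12 of the 16, and for 8691 of all genes. Female null 1 was the lowest null array for 12 of the 16, and for 5970 of all genes. Without male WT 2 the counts over the 28 genes were 8 higher and 1 lower, and without male null 2 they were 5 higher and 1 lower. Over all genes the counts were 1471 higher and 1308 lower without male WT 2, and 1209 and 849 without male null 2. With all arrays they were 2170 and 1837.

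Of the 5 measured genes of sterol sensing and transport, 0 rose and 1 fell, beside 7.07% and 5.98% of all genes. The other 4 did not pass, and 2 of the 5 had an unadjusted p under 0.05, where 26.6% of all genes lie. Srebf2, which encodes the SREBP that mainly drives cholesterol genes, read 8.31, 8.39, 8.19 and 8.15 in null skin, against 8.23, 8.25, 8.28 and 8.14 in WT skin. The arrays overlapped, with a difference of 0.04 (95% confidence interval -0.10 to 0.17, adjusted p = 0.766). Scap, the SREBP escort, differed by 0.06 (-0.06 to 0.18) and Insig2, one of its retention proteins, by -0.08 (-0.26 to 0.10). Insig1, the retention protein whose gene is itself an SREBP target, read 7.81, 8.03, 7.83 and 7.96 in null skin, against 7.73, 7.77, 7.55 and 7.73 in WT skin. All null arrays were above all WT arrays, but the difference of 0.22 (SE 0.07) was not called (adjusted p = 0.082). With same-numbered null and WT mice of a sex as pairs it was called (adjusted p = 0.0397), as it was with array weights (0.0330) or without male null 1 (0.0415). The labels do not say that same-numbered mice were matched.

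Stard4, a carrier of cholesterol between membranes, fell. It read 6.54, 6.47, 6.47 and 6.70 in null skin, against 6.68, 6.87, 6.79 and 6.92 in WT skin, and female null 2 overlapped male WT 1. The difference was -0.27 (SE 0.07, adjusted p = 0.0402). The call was lost without male null 1, male null 2, female null 1, male WT 1, male WT 2 or female WT 2 (adjusted p 0.0521 to 0.124), after median centring (0.0779) and with adjustment over all probe sets (0.0683).

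Of the 7 measured fatty acid synthesis genes 0 rose and 1 fell, beside 7.07% and 5.98% of all genes, and 6 did not pass. Their median was -0.05, and 2 passed an unadjusted p under 0.05, a share near the 26.6% of all genes. A difference between this arm and the sterol arm was not tested. Fasn, fatty acid synthase, read 8.16, 8.33, 7.98 and 8.04 in null skin, against 8.27, 8.36, 8.23 and 8.05 in WT skin. The arrays overlapped (difference -0.10, 95% confidence interval -0.25 to 0.05, adjusted p = 0.388). Acaca, the acetyl-CoA carboxylase of the committed step, read 7.48, 7.48, 7.43 and 7.44 in null skin, against 7.42, 7.39, 7.44 and 7.40 in WT skin. Its interval was narrow, at -0.06 to 0.15 around a difference of 0.04 (adjusted p = 0.635).

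The genes that supply acetyl-CoA, which both pathways use, did not pass. Acly, ATP citrate lyase, differed by 0.14 (-0.02 to 0.30, adjusted p = 0.244). Acss2, acetyl-CoA synthetase, differed by 0.17 (0.01 to 0.33, adjusted p = 0.163), with all null arrays above all WT arrays. The desaturase genes Fads1 and Fads2, which make polyunsaturated fatty acids, differed by -0.10 and -0.05 (adjusted p = 0.517 and 0.882). Fads2 has 2 probe sets that pointed apart, at -0.05 for the brighter and 0.11 for the dimmer (unadjusted p = 0.738 and 0.556).

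Elovl6, which lengthens palmitate to stearate, fell. It read 8.71, 8.87, 8.80 and 8.97 in null skin, against 9.34, 9.50, 9.12 and 9.42 in WT skin. No null array reached the lowest WT array (difference -0.51, SE 0.09, adjusted p = 0.00799), and WT was 1.43-fold the null signal. It was called with any 1 array left out (adjusted p 0.00158 to 0.0331).

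The promoters of 4 genes are printed here because the genes differ in response: Idi1 and Cyp51 rose, Hmgcs1 did not pass and Elovl6 fell. Each line is the 250 bases before the start in RefSeq's annotation of GRCm38.p6, 5′ to 3′ along the gene. Capitals mark the letters CCAAT of the NF-Y box on either strand, and TCACNCCAC, a core of the sterol regulatory element bound by SREBP.
Idi1, chr13:8885356-8885605, plus strand: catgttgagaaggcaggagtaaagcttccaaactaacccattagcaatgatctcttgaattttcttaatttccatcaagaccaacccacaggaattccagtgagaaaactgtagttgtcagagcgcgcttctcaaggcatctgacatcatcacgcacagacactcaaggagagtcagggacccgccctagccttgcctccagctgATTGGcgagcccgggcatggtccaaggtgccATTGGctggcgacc
Cyp51, chr5:4104698-4104947, minus strand: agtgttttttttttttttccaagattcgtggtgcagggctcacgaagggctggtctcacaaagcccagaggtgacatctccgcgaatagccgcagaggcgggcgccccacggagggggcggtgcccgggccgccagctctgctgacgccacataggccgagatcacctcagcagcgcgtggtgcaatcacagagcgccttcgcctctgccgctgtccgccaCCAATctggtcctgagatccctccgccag
Hmgcs1, chr13:119690101-119690350, plus strand: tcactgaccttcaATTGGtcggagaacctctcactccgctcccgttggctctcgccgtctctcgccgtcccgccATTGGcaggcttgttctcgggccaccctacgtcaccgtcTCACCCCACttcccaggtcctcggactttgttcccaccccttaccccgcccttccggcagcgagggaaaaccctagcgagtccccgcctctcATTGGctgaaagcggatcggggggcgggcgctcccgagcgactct
Elovl6, chr3:129532136-129532385, plus strand: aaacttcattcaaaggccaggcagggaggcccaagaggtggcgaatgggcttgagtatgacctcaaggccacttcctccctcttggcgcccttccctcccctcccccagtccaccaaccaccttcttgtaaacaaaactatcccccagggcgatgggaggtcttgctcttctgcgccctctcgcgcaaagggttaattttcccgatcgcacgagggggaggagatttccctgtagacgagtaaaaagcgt

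Idi1 and Hmgcs1 hold NF-Y boxes on the reverse strand, Cyp51 holds 1 on the gene's own strand, and Elovl6 holds none. Of the 23 measured genes with such a window, 18 (78.3%) hold a CCAAT box on either strand in at least 1 of their windows, as do 37.5% of all 27025 genes with a window. The Sp1 box GGGCGG is in 19 of the 23 (82.6%) and in 35.4% of all genes. The E-box CACGTG is in 5 of the 23 (21.7%) and in 6.86% of all genes. TCACNCCAC is in 1 of the 23 (4.35%), Hmgcs1, as TCACCCCAC with 128 bases between it and the start, and in 1.22% of all genes. Matches of different motifs did not overlap in the members' windows. By response, CCAAT is in 5 of 5 risen genes with a window, 1 of 2 fallen genes and 12 of 16 that did not pass. Such matches are letters, not known sites.

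The 10 called genes had the same direction in both sexes, and 24 of the 28 genes did. Calls rest on the mean of the male and female differences in these same arrays. The same sign in both sexes is thus likely for a called gene and is no separate support. No share over all genes was counted. Idi1 differed by 0.67 in males and 0.87 in females, Cyp51 by 0.45 and 0.73, Sqle by 0.52 and 0.56, and Elovl6 by -0.63 and -0.39. The difference between the sexes was called for 0 of the 28 genes in limma's interaction test, beside 0.00651% of all genes, and 0 had an unadjusted p under 0.05, beside 4.26% of all genes. Within the same fit of 4 group means, females had 3 members called higher (Idi1, Cyp51 and Sqle, adjusted p = 0.0221, 0.0339 and 0.0483) and 0 lower, beside 1.62% and 1.39% of all genes. Males had 1 called higher (Fdps, adjusted p = 0.032) and 1 lower (Elovl6, adjusted p = 0.0465), beside 1.61% and 0.616% of all genes, and Idi1 missed in males (adjusted p = 0.0535). In separate fits on 1 sex, with 2 null and 2 WT arrays, 2 members were higher (Idi1 and Fdps) and 1 lower (Elovl6) in null males, beside 2.61% and 1.26% of all genes. In females 0 were higher and 0 lower, beside 0.752% and 0.463% of all genes, while 9 and 2 had an unadjusted p under 0.05, beside 8.51% and 7.28% of all genes. Which members were called within a sex thus differed between the fits. Apart from genotype, males read higher than females in 24 of the 28 genes, beside 56.4% of all genes. The sex term was called by limma for 0 of the 28, beside 0.0163% of all genes, and 6 had an unadjusted p under 0.05, beside 5.01% of all genes.

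**Figure D3:**
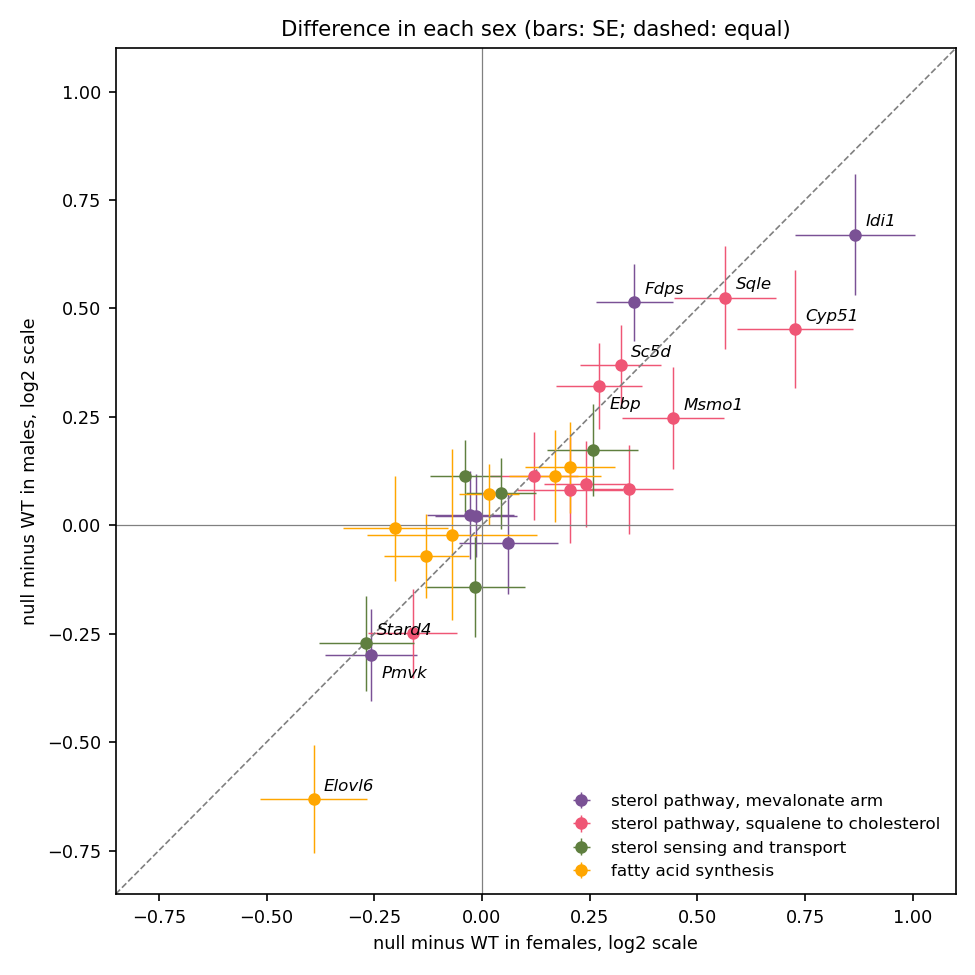
Null minus WT difference on the log2 scale in males against that in females for the 28 genes, with SE bars from a limma fit of 4 group means and a dashed line of equal differences; the called genes are named. All 10 called genes have the same sign in both sexes, which is likely for genes called on the mean of both.

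Related pathway genes outside the list were read in the same fit, in which 7.07% of all genes rose and 5.98% fell. Their lists, like the members, were chosen with earlier results of these data known. The shares called in them are thus not an independent comparison with all genes. Of 6 other sterol synthesis genes measured out of 10 listed, 1 rose (16.7%) and 1 fell (16.7%). Nus1, a subunit of the enzyme that makes dolichol from farnesyl diphosphate, read 7.93, 8.16, 8.08 and 8.13 in null skin, against 7.51, 7.56, 7.48 and 7.55 in WT skin (difference 0.55, SE 0.06, adjusted p = 0.00103). The reductase gene Cyb5r3, which passes electrons to sterol and fatty acid enzymes, fell by 0.43 (adjusted p = 0.00137). Of 11 genes of sterol sensing and uptake 2 rose (18.2%) and 1 fell (9.09%). The lipoprotein receptor gene Lrp8 rose by 0.80 (adjusted p = 0.00149) and the lysosomal cholesterol carrier gene Npc2 by 0.21 (adjusted p = 0.0362). The receptor gene Vldlr fell by 0.63 (adjusted p = 0.0178).

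Of 10 measured genes of sterol export, esters and oxysterols, 4 rose (40%, beside 7.07% of all genes) and 2 fell (20%, beside 5.98%). Cyp7b1, an oxysterol hydroxylase, read 7.22, 7.64, 7.56 and 7.22 in null skin, against 4.98, 5.14, 5.10 and 5.07 in WT skin. That difference of 2.34 (SE 0.11, adjusted p = 4.03e-06) was 5.05-fold. The lipid transporter gene Abcg1 rose by 0.88 and Ch25h, which makes an oxysterol from cholesterol, by 0.65 (adjusted p = 0.000139 and 0.00299). The oxysterol-forming Cyp27a1 fell by 0.78 and the cholesterol exporter gene Abca1 by 0.34 (adjusted p = 0.00372 and 0.0124).

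Of 24 other fatty acid synthesis genes measured, 2 rose (8.33%, near the 7.07% of all genes) and 8 fell (33.3%, beside 5.98%). Their median was -0.21. Scd1, the stearoyl-CoA desaturase that acts on the product of Elovl6, read 10.35, 10.32, 10.29 and 10.32 in null skin, against 10.80, 10.96, 10.90 and 10.93 in WT skin (difference -0.58, SE 0.06, adjusted p = 0.00039). Acacb, the carboxylase at mitochondria, fell by 0.61 and Tecr, the reductase of the elongation cycle, by 0.52 (adjusted p = 0.000381 and 0.00313). The elongation dehydratase gene Hacd3 rose by 0.34 and Mid1ip1, an activator of acetyl-CoA carboxylase, by 0.22 (adjusted p = 0.0395 and 0.0278). Of 13 genes listed under glycerolipid assembly and acyl activation 2 rose (15.4%) and 5 fell (38.5%). The 5 include the lipase genes Pnpla2 and Mgll (-0.53), which act in breakdown, so the count is not of assembly genes alone. Among the 13 the lipin gene Lpin2 was up by 1.58 and Agpat2, an acyltransferase of glycerolipid assembly, by 0.33. Pnpla2 (a triglyceride lipase), Gpam and Lpin1 (of triglyceride assembly) stood at -0.71, -0.65 and -0.55. Of 10 fatty acid oxidation genes 0 rose and 4 fell (40%), with Ppargc1a, Cpt1b and Acadm at -0.58, -0.57 and -0.40.

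**Figure D4:**
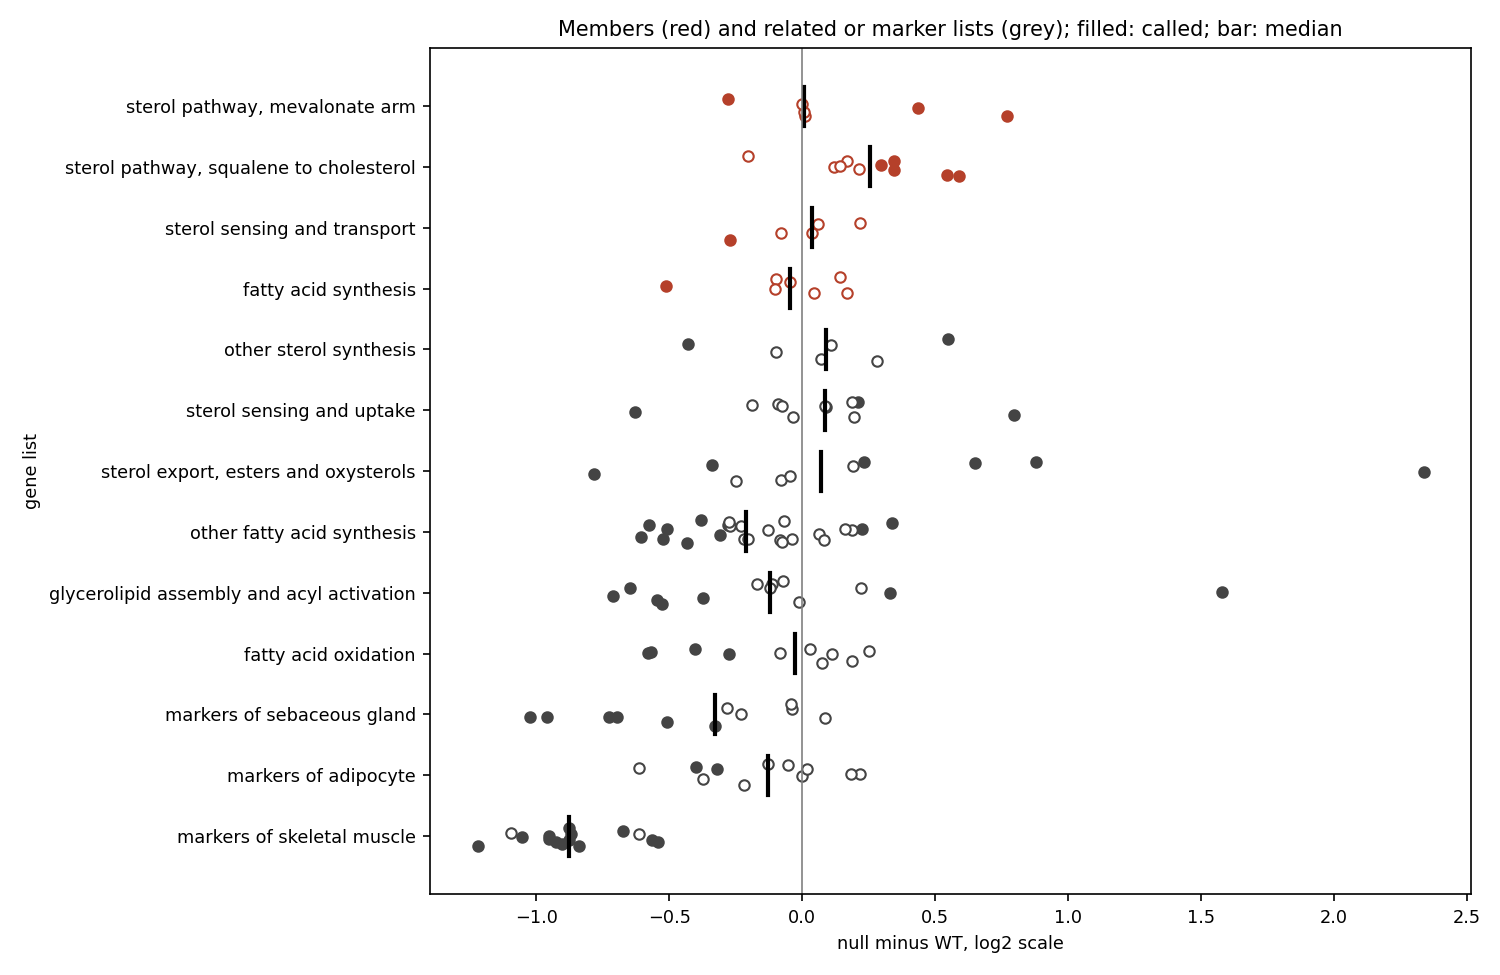
Null minus WT difference on the log2 scale for each gene of the 4 groups of members (red) and of related and marker lists (grey), with filled points called and a black bar at each median. The squalene arm has its median at 0.25 and sebaceous and skeletal muscle markers have theirs at -0.33 and -0.88.

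Markers of other cell types moved between the genotypes too, where 7.07% of all genes rose and 5.98% fell. Of 11 sebaceous gland markers 0 rose and 6 fell (54.5%, median -0.33), led by Fa2h at -1.02 and the melanocortin receptor gene Mc5r at -0.96. Acsbg1, Dgat2l6, Elovl4, Krt79 and Mogat2 were not called, at -0.28 to 0.08. The mean signal of the 11 was 7.05 to 7.26 in null arrays and 7.30 to 7.98 in WT arrays. Elovl3 and Elovl4 stand both in that list and among the other fatty acid synthesis genes. Of 15 skeletal muscle markers 0 rose and 13 fell (median -0.88), led by Myot at -1.22 and Neb at -1.05, with means of 8.19 to 8.74 in null and 9.00 to 9.73 in WT arrays. Of 11 adipocyte markers 0 rose and 2 fell (Plin4 at -0.40 and Pparg at -0.32), with overlapping means of 5.38 to 5.61 in null and 5.55 to 6.06 in WT arrays. Among these, Lep read 3.75 in null and 3.81 in WT skin, under the negative controls, and Adipoq 4.44 and 4.82. The part of gland, fat or muscle content in the lipid gene differences was not tested.

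Of 12 basal and suprabasal keratinocyte markers 0 rose and 4 fell, beside 7.07% and 5.98% of all genes. The 4 were Col17a1 at -0.61, Krt2 at -0.60, Krt15 at -0.56 and Lor at -0.35. Of 9 sweat gland markers 0 rose and 0 fell in the limma test, with 2 at an unadjusted p under 0.05, beside 26.6% of all genes (Krt8 at 0.37, Aqp5 at -0.23). Of 8 macrophage markers 0 rose and 2 fell (Cd163 and C1qc, at -0.97 and -0.59). Of 6 fibroblast markers 0 rose and 2 fell (Dpt and Dcn, at -0.86 and -0.83), of 7 endothelial markers 2 rose and 0 fell (Vwf and Pecam1, both at 0.27), and of 4 myelin and Schwann cell markers 1 rose (Mal, 1.09) and 1 fell (Pmp22, -0.47).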

How the data were processed

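Single-colour Affymetrix arrays measured total RNA from forepaw skin, 1 array per mouse. The deposited values are log2 signals, for which the submitters' processing notes name Partek and RMA as what the authors used; versions, settings and build: not given in the sources used here. RMA compresses large changes. Of 72688 probe sets, 6732 controls were left out. The array annotation and a RefSeq gene table of GRCm38.p6 gave 31258 probe sets with 1 gene and 30702 genes, each read from its brightest probe set; 1492 listed probe sets name several genes and were not used. Arrays have no read depth; the number of arrays limits precision.

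limma 3.58.1 in R 4.3.3 fitted genotype and sex (lmFit, eBayes with intensity trend), with Benjamini-Hochberg adjustment over all genes; effects by sex came from 4 group means. The fit was tested on simulated data. Python 3.11.15, pandas 2.3.3 and matplotlib 3.10.9 prepared tables and plots. Separate mice are replicates. Deviations from group means correlated between same-numbered null and WT arrays (male mice 0.316, female mice 0.115), so the 4 pairs were run as a block. The labels number the mice but name no pairs. With 2 arrays per group the opposite pairing gives the same correlation with its sign reversed, so these values do not show matched mice.

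Members and lists were chosen with earlier results of these data known. Genes named are all measured members, the 3 largest called rises and falls of each related list and Krt16. From each marker list 2 are named (by smallest p where none was called). Krt15, Lor, Lep, Adipoq, Elovl3, Elovl4, Acsbg1, Dgat2l6, Krt79, Mogat2 and Mgll were added. Motifs were searched in the RefSeq windows on both strands and chosen after the values were seen. Alternatives covered the sex term, pairing, normalization, filters, probe sets, the prior, array weights, each array left out and 1 sex alone.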

Additional observations from a re-analysis of the deposited data

Results flagged for a closer look

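Among 56 groups of 4 arrays (28 genes in 2 genotypes), 3 held an array set apart from the other 3 of its genotype by Dixon's test, which chance gives in about 1 of 20 groups. Fdps read 7.34 in female WT 2, under the other WT arrays at 7.53 to 7.54. Fdft1 read 7.13 in male WT 2, above the other WT arrays at 6.93 to 6.95. Scap read 8.06 in male null 2, above the other null arrays at 7.91 to 7.92. No gene was flagged for a difference between the sexes.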

How the results depend on the processing

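Over 21 alternatives, 542 values of single genes stayed on their side of the threshold, 41 lost a call and 5 gained one; no called gene turned its sign. Leaving out each array in turn gave 5 to 8 members higher and 1 to 3 lower in null skin. Other pathway genes numbered 6 to 11 higher and 13 to 22 lower. The same fits called 1209 to 2290 of all genes higher and 843 to 1864 lower, against 2170 and 1837 with all arrays. The count of lower members was 1 after median centring and 1 with p adjusted over all probe sets, where 7 other pathway genes were higher. Over all genes 1550 were lower after median centring, and 1307 were lower and 1663 higher with that adjustment. On male arrays alone 2 members were higher and 1 lower, with 5 other pathway genes higher and 9 lower. On female arrays alone these counts were 0, 0, 4 and 2. Over all genes 802 were higher and 388 lower on male arrays alone, and 231 and 142 on female arrays alone. Fewer arrays were fitted for 1 sex alone. The replicate block (null and WT mice paired by number) gave 8 members higher and 3 lower, adding Insig1, and changed no other member's call. Over all genes it called 2545 higher and 2017 lower. No member was called for a difference between the sexes with quantile normalization, the block, no trend, a filter at the negative controls or any 1 array left out, by limma's adjusted p. With 2 arrays per group in the main fit that test called 2 of all 30702 genes, so it could miss such differences. Idi1, Fdps, Sqle, Cyp51, Sc5d and Elovl6 were called with any 1 array left out. The cause of lost calls was not tested.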
